A study of Mus musculus with 12 samples.

Results

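The comparison set the mouse heart libraries of both groups that received busulfan against those of both groups that did not, 6 libraries against 6. It used all 12 libraries of the study and 14687 of the 19246 genes in the table. The 4 groups were fitted together, and the mean of the busulfan groups was tested against the mean of the groups without busulfan for each gene. On both sides, 3 of the 6 libraries came from mice given alginate oligosaccharides (AOS), sugars cut from the alginate of brown algae.

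RNA was taken from heart tissue of mice whose strain is labelled IRC, with 3 libraries in each group. Mice of the busulfan plus AOS group were dosed once with busulfan at 40 mg/kg, followed by AOS at 10 mg/kg over 5 weeks. Those of the busulfan group had the single 40 mg/kg dose and no AOS. AOS mice had the 5 weeks of AOS at 10 mg/kg and no busulfan, and control mice were untreated. The labels give no age, no vehicle, no time between the busulfan dose and the sampling of the busulfan group, and no date of collection. Nor do they say whether each library is a heart of its own, so a p-value here measures library spread, which may be technical. The tissue label reads Cells, but the cardiomyocyte markers were high in every library, with summed levels of 26018 to 48504 FPKM, a value scaled to gene length and library size, in busulfan libraries and 30419 to 56887 FPKM in libraries without busulfan.

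Busulfan is a bifunctional alkylating drug that crosslinks DNA and is used to empty the bone marrow and the testis of dividing stem cells. DNA damage stabilises the transcription factor p53, which switches on genes of growth arrest, DNA repair and apoptosis. Damaged or unfolded protein is met by separate programmes, the heat shock response of the cytosol and the unfolded protein response of the endoplasmic reticulum (ER), and both raise chaperones that refold their clients.

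The libraries held 9929772 to 13620815 estimated counts each. Markers of neighbouring tissue differed widely between libraries, and the cause was not tested. The summed level of 11 atrial markers ran between 57.1 and 14814 FPKM in busulfan libraries and between 78.6 and 14468 FPKM in libraries without busulfan. AOS replicate 2 stood apart among the libraries without busulfan, with 5575 FPKM of airway and lung markers against 21.6 to 316 FPKM in the other libraries of its side. Busulfan plus AOS replicate 1 stood apart among busulfan libraries, with 2069 FPKM against 2.09 to 154 FPKM. It also had the highest atrial sum (14814 FPKM) and the lowest cardiomyocyte sum (26018 FPKM). The highest values of Hyou1, Sdf2l1, Serpinh1, P4ha1, Dnaja1, Wt1, Banp and Mtmr4 were in this library, those of Zmat3 and Eda2r in others. Transcript levels of single genes are given as CPM, the count scaled to library size, with TMM factors that correct for composition, and fold changes are on the log2 scale with their standard error (SE). In bulk tissue, fewer cells of a type and less RNA per cell cannot be told apart.

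At a Benjamini-Hochberg adjusted p under 0.05 in edgeR's quasi-likelihood test, 23 genes passed, 0.157% of those tested. Of these, 20 were higher in busulfan libraries (0.136%) and 3 were lower (0.0204%). The higher genes changed by 0.46 to 1.62 on the log2 scale, with a median of 0.78. At an unadjusted p under 0.05 there were 2522 genes (17.2%), 1510 higher (10.3%) and 1012 lower (6.89%). The 6 busulfan libraries all lay above the other 6 for 114 genes (0.776%) and all below for 67 (0.456%), 181 genes or 1.23% in all. Of the 23 called genes, 18 were among them. Without TMM factors, on library totals alone, 5 genes were called, all higher, and the unadjusted split was 1944 higher to 557 lower. The median of all genes was then 0.07, against 0.00 with the factors. The count depended on single libraries. It was 5, 9 and 17 without busulfan plus AOS replicates 1, 2 and 3, and 47, 4 and 3 without busulfan replicates 1, 2 and 3. It was 4, 345 and 4 without AOS replicates 1, 2 and 3, and 1, 2 and 15 without control replicates 1, 2 and 3. All 23 genes kept their direction in each of these fits, which share 11 libraries with the fit that chose them, so a kept direction is favoured. Zmat3 passed in all 12 of them, Eda2r in 11, Mtmr4 in 9 and Banp in 7, and the other called genes with a symbol passed in 1 to 6. Without AOS replicate 2, where 345 genes (2.33%) were called, the p53 list had 7 higher and 1 lower, the unfolded protein response list 10 higher, the heat shock list 2 higher and the interferon list 5 higher. Over the 12 fits that leave out 1 library, the number of higher genes was 1 to 7 for the p53 list and 0 to 10 for the unfolded protein response list, with none in 6 fits (without control replicate 1 or 2, AOS replicate 1 or 3, or busulfan replicate 2 or 3). It was 0 to 2 for the heat shock list, with none in 9 fits, and 0 to 2 for the collagen-processing list, with none in 7. The interferon list had 0 to 5, with none in 11. On the cold-inducible and clock list 0 to 1 were higher and 0 to 3 lower, with none called in 9 fits. Cirbp passed in 3 of the 12 and Dbp in 2.

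**Figure D1:**
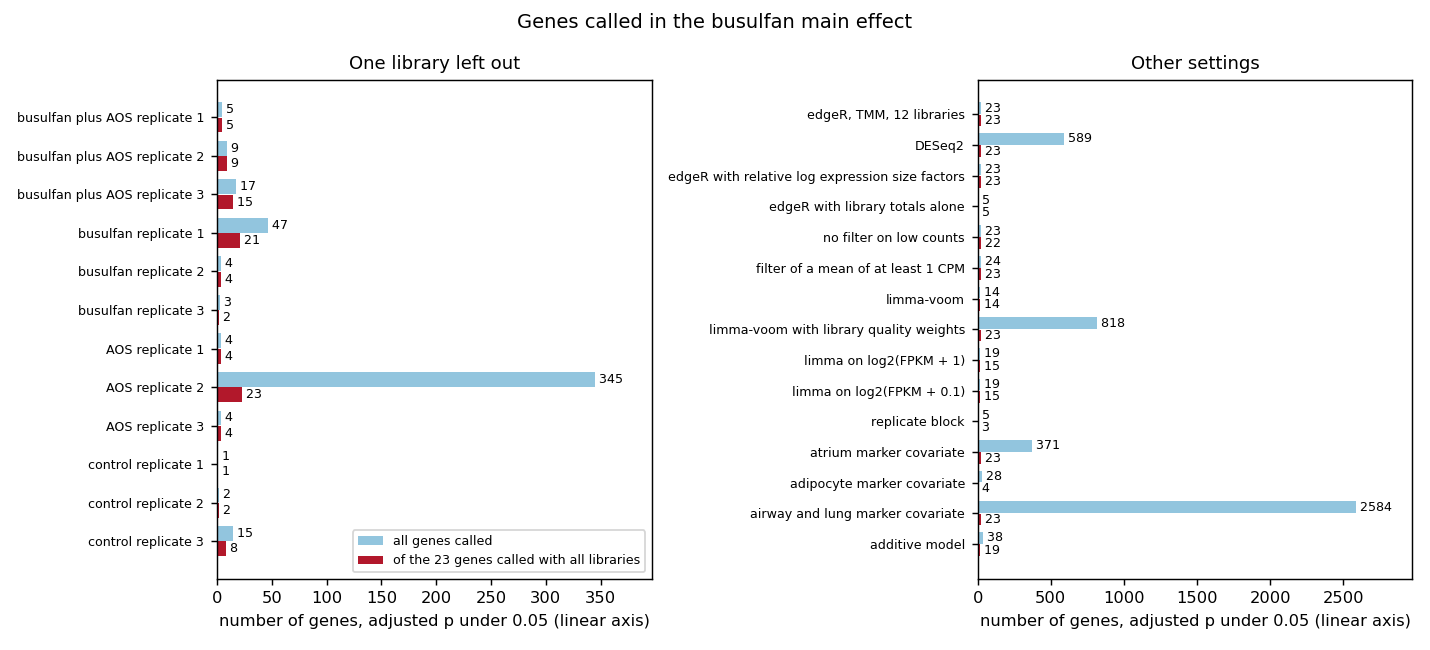
Number of genes past an adjusted p of 0.05 in the busulfan main effect (horizontal axis, linear) when 1 library is left out (left) and under other settings (right); blue bars count all genes called and red bars those among the 23 called with all libraries. Without AOS replicate 2 the count was 345, and without control replicate 1 it was 1.

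Genes of the p53 response stood first by p-value. Zmat3, a p53 target that encodes an RNA-binding zinc finger protein (chromosome 3, 32334792 to 32365665 in GRCm38), had 23, 22.1 and 23.6 CPM in busulfan plus AOS libraries and 18.1, 21.1 and 19.4 CPM in busulfan libraries. It had 10.6, 11.4 and 9.27 CPM in AOS libraries and 8.96, 12 and 9.12 CPM in control libraries. The 6 busulfan libraries all lay above the other 6, and the gene rose by 1.05 on the log2 scale (SE 0.10, adjusted p = 0.00656), which is 2.07-fold. It was the 1 named gene that passed in all 26 alternative settings. Another gene, 4930429B21Rik, overlaps its locus, and whether the counting used strand is not given.

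Eda2r, a receptor of the tumour necrosis factor family that binds ectodysplasin A2 and is also induced by p53, lies on chromosome X (97333837 to 97377234). It had 14.1, 18.8 and 14.4 CPM in busulfan plus AOS libraries and 13.2, 17.3 and 19.0 CPM in busulfan libraries, against 5.78, 5.78 and 6.35 CPM in AOS libraries and 4.19, 3.30 and 6.27 CPM in control libraries. Here too the sides did not overlap. The rise was 1.62 on the log2 scale (SE 0.17, adjusted p = 0.00806), 3.08-fold, and it passed in 25 of 26 settings.

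Of the 38 tested genes on a list of p53 targets, Zmat3 and Eda2r were the 2 that passed. At an unadjusted p under 0.05, 14 were higher and 5 lower, and the median of the list was 0.21, against 0.00 for all genes. The 5 lower genes were Sesn1 (log2 fold change -0.41), Plk2 (-0.39), Ddb2 (-0.33), Perp (-0.30) and Xpc (-0.18). For Xpc all busulfan libraries lay below all others. Sesn2, a stress-induced inhibitor of mTORC1 signalling, averaged 6.39 ± 0.628 CPM in busulfan libraries and 3.68 ± 1.11 CPM in the others (SD, n = 6 each); the sides did not overlap, but its adjusted p was 0.0734. Phlda3, a repressor of AKT signalling, had a log2 fold change of 1.62 (SE 0.36, adjusted p = 0.0998). Cdkn1a, the cell cycle inhibitor p21, averaged 44.2 ± 23.7 CPM in busulfan libraries and 16.2 ± 7.38 CPM in the others. Its libraries overlapped: busulfan plus AOS replicate 3 had 7.25 CPM, below the lowest library without busulfan (9.75 CPM), and the adjusted p was 0.18. Mdm2, the ubiquitin ligase that degrades p53, had a log2 fold change of 0.11 (SE 0.07, adjusted p = 0.442). Ccng1, another long-known target, averaged 1362 ± 313 CPM in busulfan libraries and 1588 ± 349 CPM in the others. No member of the lists of crosslink repair genes (24 tested) or of cell cycle and replication genes (30 tested) passed in edgeR. At an unadjusted p under 0.05, 2 and 4 of them were higher and none was lower, while 10.3% of all genes tested were higher and 6.89% lower. In DESeq2, 0 and 1 were called. DESeq2 called 589 genes in all, 4.01% of those tested.

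**Figure D2:**
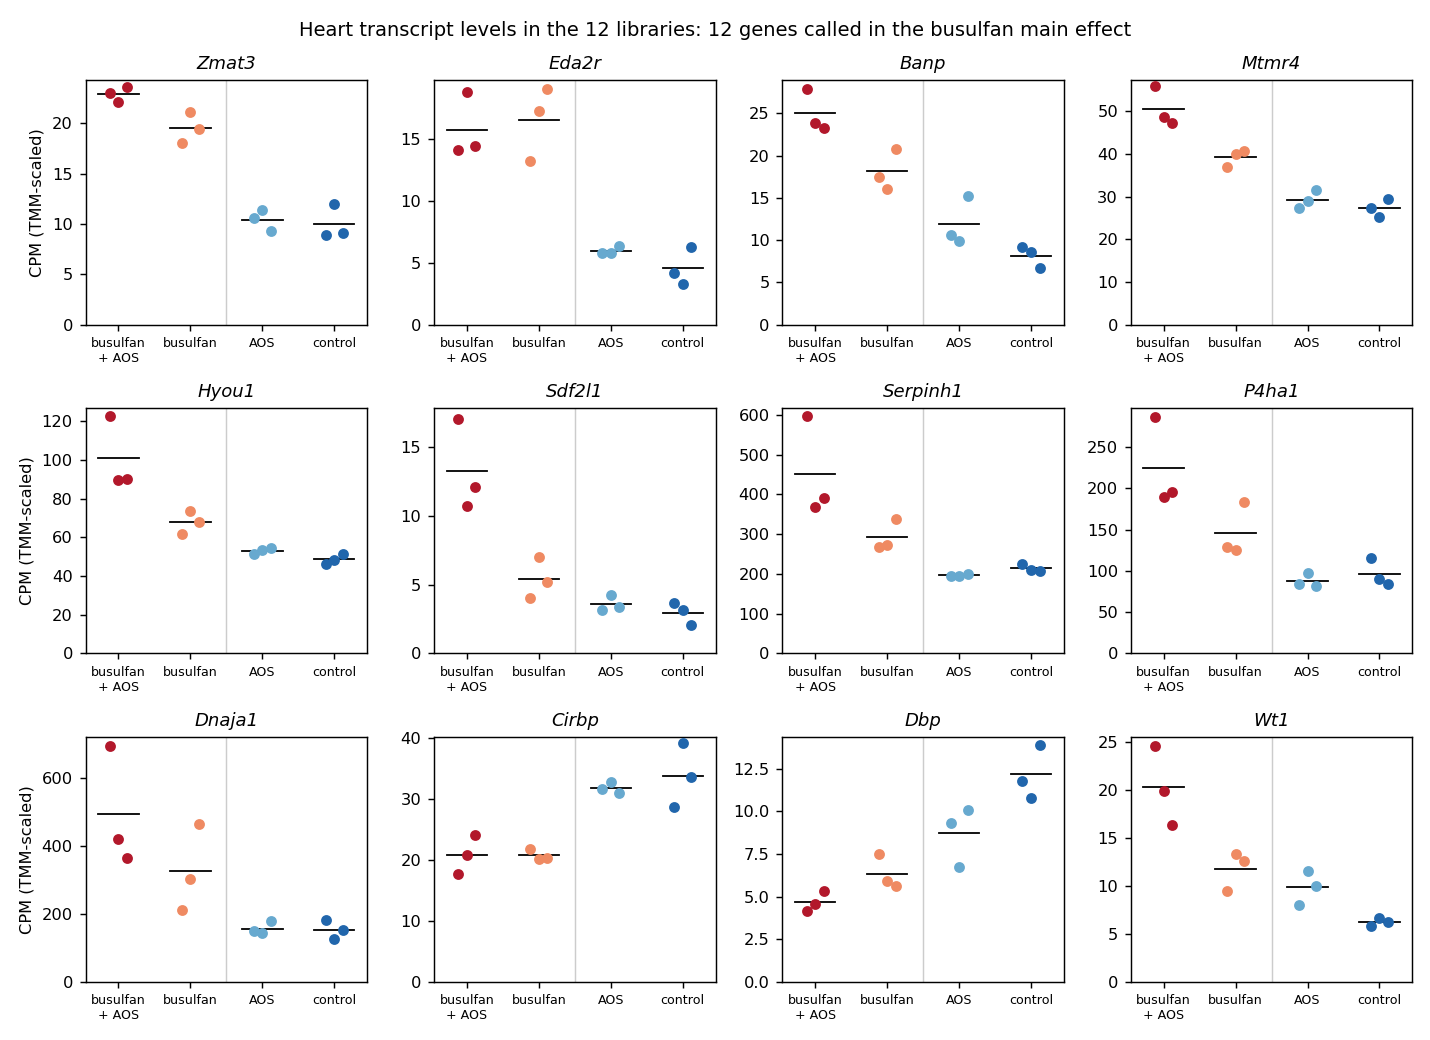
TMM-scaled CPM (vertical axes, starting at 0) of 12 called genes in each library, with busulfan groups on the left of each panel and groups without busulfan on the right; points are libraries and bars are group means. For Zmat3 all busulfan libraries lie at 18.1 CPM or more and all others at 12 CPM or less; Sdf2l1, Dbp and Wt1 overlap.

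Banp and Mtmr4 followed. Banp, a nuclear matrix protein that binds promoters with CGCG elements, had 27.9, 23.8 and 23.3 CPM in busulfan plus AOS libraries and 17.5, 16.1 and 20.8 CPM in busulfan libraries, against 10.6, 9.89 and 15.2 CPM in AOS libraries and 9.18, 8.59 and 6.67 CPM in control libraries. It rose by 1.11 (SE 0.13, adjusted p = 0.0186). Gm17709, Gm27011 and Mir7237 overlap its locus. Mtmr4, a phosphatase of endosomal phosphoinositides, had 55.9, 48.6 and 47.4 CPM in busulfan plus AOS libraries and 37.0, 40.0 and 40.8 CPM in busulfan libraries, against 27.4, 28.9 and 31.6 CPM in AOS libraries and 27.3, 25.3 and 29.4 CPM in control libraries. It rose by 0.66 (SE 0.07, adjusted p = 0.0109). Neither gene overlapped between the sides, and with Zmat3 and Eda2r they were the 4 genes that passed in at least 20 of the 26 settings.

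Genes of the unfolded protein response leaned higher. Of 25 tested on the list, 24 had a positive log2 fold change, against 50.3% of all genes, and 3 passed, all higher: Hyou1, Sdf2l1 and Syvn1. At an unadjusted p under 0.05, 17 were higher and none was lower, while 10.3% of all genes tested were higher and 6.89% lower. The median was 0.44. No member passed on library totals alone, with the replicate block or with the adipocyte covariate, 1 passed with limma-voom and 15 with DESeq2. Of all genes tested, DESeq2 called 4.01%. Hyou1, a large Hsp70-like chaperone of the ER, had 123, 89.5 and 90.2 CPM in busulfan plus AOS libraries and 61.5, 73.6 and 68.2 CPM in busulfan libraries, against 51.2, 53.3 and 54.5 CPM in AOS libraries and 46.0, 48.2 and 51.6 CPM in control libraries. It rose by 0.71 (SE 0.09, adjusted p = 0.0224), and the sides did not overlap.

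Sdf2l1, a cofactor of the ER chaperone BiP, had 17.1, 10.7 and 12.1 CPM in busulfan plus AOS libraries and 4.01, 7.02 and 5.16 CPM in busulfan libraries, against 3.16, 4.25 and 3.34 CPM in AOS libraries and 3.63, 3.12 and 2.06 CPM in control libraries. It rose by 1.38 (SE 0.20, adjusted p = 0.0395), although busulfan replicate 1 lay below AOS replicate 2. Syvn1, the HRD1 ubiquitin ligase that sends misfolded ER proteins to degradation, rose by 0.61 (SE 0.10, adjusted p = 0.0441) and averaged 43.1 ± 12.8 CPM in busulfan libraries and 27.4 ± 2.63 CPM in the others. Mrpl49 and Mir6988 overlap its locus. Txndc11, a thioredoxin-domain protein of the ER outside the list, rose by 0.47 (SE 0.07, adjusted p = 0.0426).

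Several members lay just outside the threshold. Xbp1, a transcription factor of the response, had a log2 fold change of 0.55 (adjusted p = 0.0594). Manf, a secreted ER stress protein, had 0.71 (adjusted p = 0.0594). Pdia4, a disulfide isomerase, had 0.75 (adjusted p = 0.0616). Hspa5, which encodes BiP itself, averaged 791 ± 149.8 CPM in busulfan libraries and 579.9 ± 95.5 CPM in the others (adjusted p = 0.168). Of the ER stress sensors, Atf6 had a log2 fold change of -0.06 (SE 0.11), Ern1 of 0.02 (SE 0.14) and Eif2ak3, which encodes PERK, of 0.20 (SE 0.12), and none passed.

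Regulators of these programmes bind known elements near the start of their targets. The 4 promoters shown carry such an element, or its short core, in genes whose values are given here. The sequences are from RefSeq in GRCm38.p6, the assembly of mm10, and hold the 250 bases before the annotated start, on the strand of the gene. Capitals mark a short core of the heat shock element (GAANNTTC), not the full element, in Dnaja1 (chr4:40722218-40722467, plus strand) and Hspa1b (chr17:34959239-34959488, minus strand). They mark the ER stress element (CCAAT and CCACG with 9 bases between them) in Syvn1 (chr19:6046326-6046575, plus strand) and Creld2 (chr15:88819396-88819645, plus strand), which has it on the opposite strand.
Dnaja1: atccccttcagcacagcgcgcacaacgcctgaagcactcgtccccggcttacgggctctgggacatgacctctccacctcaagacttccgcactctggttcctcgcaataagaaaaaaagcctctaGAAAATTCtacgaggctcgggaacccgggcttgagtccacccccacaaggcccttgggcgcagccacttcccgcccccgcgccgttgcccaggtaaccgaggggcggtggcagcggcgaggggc
Hspa1b: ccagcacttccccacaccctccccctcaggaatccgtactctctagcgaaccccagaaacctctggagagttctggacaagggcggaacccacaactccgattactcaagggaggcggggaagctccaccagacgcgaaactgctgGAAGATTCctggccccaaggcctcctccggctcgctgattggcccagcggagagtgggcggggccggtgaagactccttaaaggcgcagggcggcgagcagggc
Syvn1: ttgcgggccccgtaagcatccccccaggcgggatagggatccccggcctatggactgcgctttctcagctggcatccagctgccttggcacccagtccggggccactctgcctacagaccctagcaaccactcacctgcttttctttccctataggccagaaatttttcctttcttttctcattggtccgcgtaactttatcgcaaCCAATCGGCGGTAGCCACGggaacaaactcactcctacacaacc
Creld2: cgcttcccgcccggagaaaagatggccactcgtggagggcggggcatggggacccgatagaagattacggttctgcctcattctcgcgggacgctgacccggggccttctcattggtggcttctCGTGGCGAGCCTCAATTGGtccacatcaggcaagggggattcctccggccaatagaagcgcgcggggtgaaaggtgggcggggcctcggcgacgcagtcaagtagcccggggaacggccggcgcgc

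Windows running 250 bases before to 50 after the start were searched on both strands for 27025 genes. The ER stress element was in 0.137% of all windows and in 8 of the 22 windows found for the unfolded protein response list (36.4%), Syvn1, Creld2, Hspa5, Calr and Hsp90b1 among them. The heat shock core GAANNTTC was in 9.04% of all windows and in 13 of 24 windows of the heat shock list (54.2%). Of the 14 called genes with a window, Syvn1 held the ER stress element, and Dnaja1 and Elovl5 held the heat shock core. The p53 half-site was in 9.55% of all windows and in 10 of 29 windows of the p53 list (34.5%), Cdkn1a, Mdm2 and Bax among them. None of the 14 windows of called genes held it, and for Zmat3 no window was used. The E-box of clock factors (CACGTG) was in 8.09% of all windows, in 5 of 17 windows of the clock list (29.4%) and in the called genes Creb5, Eda2r, Elovl5 and Lats2. These matches describe the letters of the windows and say nothing of binding.

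Among cytosolic chaperones, Dnaja1, an Hsp40 cochaperone that delivers clients to Hsp70, was called. It had 693, 420.0 and 365 CPM in busulfan plus AOS libraries and 212, 302 and 464 CPM in busulfan libraries, against 148, 144 and 178 CPM in AOS libraries and 181, 125 and 151 CPM in control libraries. The sides did not overlap, and the gene rose by 1.38 (SE 0.21, adjusted p = 0.043). The spread among busulfan libraries was wide, from 212 to 693 CPM. Gm6297 and Mir207 overlap the locus. Of 30 tested heat shock proteins and cochaperones, Dnaja1 alone passed. At an unadjusted p under 0.05, 15 were higher and 2 lower, against 10.3% and 6.89% of all genes tested. The list median was 0.27.

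Hsph1, an Hsp110 exchange factor for Hsp70, had 646, 368 and 272 CPM in busulfan plus AOS libraries and 165, 211 and 455 CPM in busulfan libraries, against 102, 74.7 and 95.5 CPM in AOS libraries and 180.4, 79.6 and 118 CPM in control libraries (adjusted p = 0.0623). Busulfan replicate 1 lay below control replicate 1. The inducible Hsp70 genes Hspa1a and Hspa1b had log2 fold changes of 2.36 (SE 0.59) and 2.41 (SE 0.59), with adjusted p of 0.116 and 0.114. They are near-identical copies whose reads can be split between them. Hspa1b ran between 8.46 and 175 CPM in busulfan libraries and between 6.60 and 26.6 CPM in the others. The factors Hsf1 and Hsf2, which drive the heat shock response, had log2 fold changes of 0.00 and 0.01. The small heat shock proteins on the list were mixed and none passed. Hspb7 had -0.45, Hspb6 -0.45, Cryab -0.36 and Hspb8 -0.23, while Hspb1 had 0.52, with 1.24 in busulfan plus AOS against AOS and -0.20 in busulfan against control.

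Collagen-processing enzymes gave 2 called genes. Serpinh1, the collagen chaperone HSP47, had 597, 368 and 392 CPM in busulfan plus AOS libraries and 267, 272 and 339 CPM in busulfan libraries, against 194, 194 and 200.3 CPM in AOS libraries and 225, 210.1 and 208 CPM in control libraries. It rose by 0.83 (SE 0.12, adjusted p = 0.0395). P4ha1, a catalytic subunit of collagen prolyl 4-hydroxylase, had 287, 189.6 and 196 CPM in busulfan plus AOS libraries and 129, 125 and 183 CPM in busulfan libraries, against 83.7, 97.1 and 81.2 CPM in AOS libraries and 115, 89.7 and 84.2 CPM in control libraries. It rose by 0.98 (SE 0.14, adjusted p = 0.0395). For both, every busulfan library lay above every other library. Of the 18 tested genes of collagen hydroxylation and crosslinking, these 2 passed and 7 in all had an unadjusted p under 0.05, each of them higher. Of 23 tested collagens and matrix genes none passed, while 9 were higher and 1 lower at an unadjusted p under 0.05, with a median of 0.37. DESeq2 called 5 of them higher and 1 lower, against 4.01% of all genes tested in either direction. Of all genes tested, 10.3% were higher and 6.89% lower at an unadjusted p under 0.05. Col6a3, a chain of collagen VI, averaged 88.5 ± 12.2 CPM in busulfan libraries and 55.4 ± 11.5 CPM in the others (adjusted p = 0.0728).

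The genes that fell included an RNA-binding protein of the cold response and an output gene of the circadian clock. Cirbp, the cold-inducible RNA-binding protein, had 17.7, 20.8 and 24.0 CPM in busulfan plus AOS libraries and 21.8, 20.1 and 20.3 CPM in busulfan libraries, against 31.6, 32.8 and 31.0 CPM in AOS libraries and 28.7, 39.1 and 33.6 CPM in control libraries. All busulfan libraries lay below all others, and the gene fell by 0.66 on the log2 scale (SE 0.10, adjusted p = 0.0388). Dbp, a transcription factor under direct control of the clock, had 4.18, 4.56 and 5.34 CPM in busulfan plus AOS libraries and 7.50, 5.94 and 5.60 CPM in busulfan libraries, against 9.30, 6.75 and 10.1 CPM in AOS libraries and 11.8, 10.8 and 13.9 CPM in control libraries. It fell by 0.92 (SE 0.14, adjusted p = 0.0426); busulfan replicate 1 lay above AOS replicate 2. Sphk2 overlaps the locus of Dbp.

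These 2 were the called members of a list of 21 cold-inducible and clock genes. At an unadjusted p under 0.05, 5 were higher and 5 lower (median -0.20), against 10.3% and 6.89% of all genes tested. No member passed on library totals alone or with the adipocyte covariate. Tef, a relative of Dbp, averaged 85.4 ± 5.66 CPM in busulfan libraries and 114 ± 12.2 CPM in the others, with no overlap (adjusted p = 0.0623). Npas2, a partner of the clock activator BMAL1, had a log2 fold change of 0.45 (adjusted p = 0.0844) and Per1, a clock repressor, of 0.75 (adjusted p = 0.223). The other cold-inducible RNA-binding protein on the list, Rbm3, had -0.20 (adjusted p = 0.324). The hour of sampling is not in the labels.

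Sftpc, a surfactant protein of lung alveolar cells, was the other gene that fell. It had 0, 0.154 and 0 CPM in busulfan plus AOS libraries and 0.0872, 0.0771 and 0.262 CPM in busulfan libraries, against 0.451, 0.557 and 0.0835 CPM in AOS libraries and 10.2, 4.60 and 8.33 CPM in control libraries. The high values were those of the control group, and the sides overlapped. Its log2 fold change was -4.17 (SE 0.65, adjusted p = 0.0426). With 1 library left out it ran from -5.43 to -3.89 and passed in 1 of the 12 fits, the one without AOS replicate 2. Of 12 tested airway and lung markers, 11 had a lower mean in busulfan libraries, and the summed level of the 14 on the list ran between 2.09 and 2069 FPKM in busulfan libraries and between 21.6 and 5575 FPKM in the others, with no marker at 0 in all libraries. Their part in the result for Sftpc was not tested.

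Wt1, which marks the epicardium that lines the outside of the heart, encodes a transcription factor and had 24.6, 19.9 and 16.3 CPM in busulfan plus AOS libraries and 9.50, 13.3 and 12.6 CPM in busulfan libraries, against 8.03, 11.5 and 10.0 CPM in AOS libraries and 5.78, 6.60 and 6.18 CPM in control libraries. It rose by 0.98 (SE 0.14, adjusted p = 0.0356), with overlap between the busulfan and AOS groups. All 11 markers of mesothelium and epicardium, Wt1 included, had a higher mean in busulfan libraries, against 50.3% of all genes tested. Only Wt1 had an unadjusted p under 0.05, while 10.3% of all genes were higher at that p. Both with AOS and without it, 8 of the 11 were higher after busulfan. The summed level of the markers ran between 15.2 and 239 FPKM in busulfan libraries and between 15.3 and 149.9 FPKM in the others. None was at 0 in all libraries. Their part in the result for Wt1 was not tested.

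The remaining called genes were all higher. Rin3, an activator of the endosomal GTPase Rab5, rose by 0.58 (SE 0.07, adjusted p = 0.0186). Tubb2a, a beta-tubulin with a near-identical copy in Tubb2b, rose by 0.58 (SE 0.07, adjusted p = 0.0186). Elovl5, an elongase of polyunsaturated fatty acids, rose by 0.72 (SE 0.10, adjusted p = 0.029). Creb5, a factor of the CREB/ATF family, rose by 0.73 (SE 0.11, adjusted p = 0.0426). Lats2, a kinase of the Hippo pathway, averaged 75.3 ± 7.20 CPM in busulfan libraries and 53.9 ± 5.50 CPM in the others. Ret, the receptor tyrosine kinase of glial cell-derived neurotrophic factors, averaged 15.1 ± 3.74 CPM in busulfan libraries and 6.89 ± 1.96 CPM in the others. It stood on the list of Schwann cell and neuron markers, of which 5 of 8 tested had a higher mean in busulfan libraries; the list summed to 13.3 to 35.8 FPKM there and to 10.9 to 41.9 FPKM in the others, no marker was at 0 in all libraries, and its part in the result was not tested. Arhgap23 averaged 36.5 ± 2.31 CPM in busulfan libraries and 26.6 ± 3.82 CPM in the others. Lats2, Ret and Arhgap23 shared an adjusted p of 0.0441. The called gene without a name, the model BGIG10090_47845, rose by 1.44 (SE 0.19, adjusted p = 0.028).

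The first gene outside the threshold was Rrad, a GTPase that restrains the L-type calcium channel. It had 99.6, 64.7 and 108 CPM in busulfan plus AOS libraries and 115, 81.7 and 100.4 CPM in busulfan libraries, against 161, 111 and 177 CPM in AOS libraries and 210.4, 223 and 224 CPM in control libraries (log2 fold change -0.93, adjusted p = 0.0534). Busulfan replicate 1 lay above AOS replicate 2. Jdp2, a repressor of the AP-1 family, had a log2 fold change of 0.87, and Bpnt1, a nucleotide phosphatase, of 0.53, both with an adjusted p of 0.0594.

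The main effect averages 2 comparisons that share no library, busulfan plus AOS against AOS and busulfan against control. Taken alone, busulfan plus AOS against AOS gave 3 called genes in edgeR (0.0204%), all higher, Zmat3, Tubb2a and Mtmr4, and 1384 at an unadjusted p under 0.05 (9.42%). Leaving out any 1 of the 12 libraries, those of the other pair included, took this count to 0 or 1. Busulfan against control gave 0 called genes in edgeR, with 1558 at an unadjusted p under 0.05 (10.6%) and a smallest adjusted p of 0.146. DESeq2 called 155 and 52 genes in these 2 comparisons, and limma-voom 3 and 0. All 23 genes of the main effect had the same direction in both comparisons, as did 9913 of all genes tested (67.5%); the choice by the mean of both favours such genes. Across the 14687 genes, which are not independent replicates, the log2 fold changes of the comparisons had a Pearson r of 0.25.

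**Figure D3:**
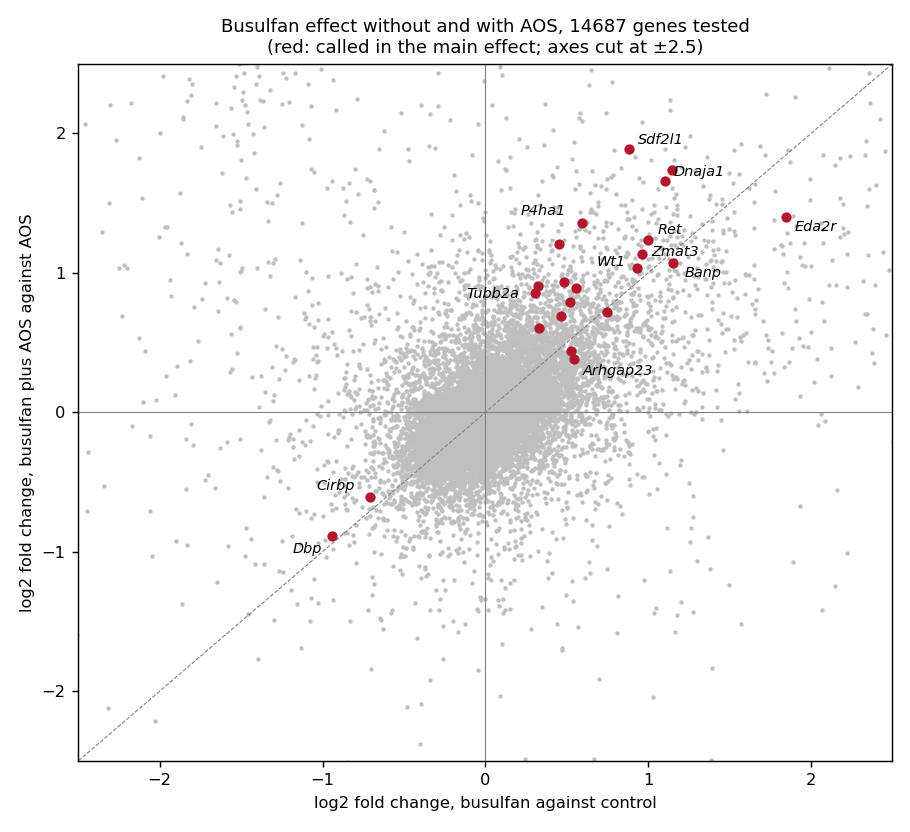
Log2 fold change of busulfan plus AOS against AOS (vertical) and of busulfan against control (horizontal) for each gene tested, with the called genes of the main effect in red; the dashed line marks equal change, and points beyond 2.5 on either axis, Sftpc included, are not drawn. Sdf2l1, P4ha1 and Tubb2a lie above the line, Eda2r and Arhgap23 below it.

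The change was larger with AOS for 15 of the 23 genes and larger without it for 8. Tests of that difference gave an unadjusted p under 0.05 for 6 of them, Tubb2a, Serpinh1, Syvn1, P4ha1, Sdf2l1 and Hyou1, all larger with AOS. None passed over all genes, where the smallest adjusted p of the interaction was 1 and 432 genes (2.94%) had an unadjusted p under 0.05. DESeq2 called 5 genes in the interaction and limma-voom 0. Serpinh1, for one, had a log2 fold change of 1.21 (SE 0.18) with AOS and of 0.45 (SE 0.17) without. The median of the unfolded protein response list was 0.71 with AOS and 0.15 without, and that of the heat shock list 0.49 and 0.10. By contrast, the 2 medians of the p53 list were 0.18 with AOS and 0.15 without. The difference between list medians was not tested. Creld2, an ER stress gene, was among the 5 genes with the smallest interaction p, with an adjusted p of 1. It had 36.0, 23.1 and 22.6 CPM in busulfan plus AOS libraries and 12.1, 14.9 and 13.1 CPM in busulfan libraries, against 11.8, 12.6 and 12.4 CPM in AOS libraries and 15.3, 12.2 and 12.2 CPM in control libraries.

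Genes of the contractile and energy machinery leaned lower without passing. Of 22 tested sarcomere genes, 21 had a lower mean in busulfan libraries, 6 of them at an unadjusted p under 0.05, and the median was -0.36. Desmin (Des), the intermediate filament of muscle, averaged 1735 ± 336 CPM in busulfan libraries and 2408 ± 475 CPM in the others (adjusted p = 0.199). Of 28 genes of oxidative phosphorylation, 27 had a lower mean and 3 an unadjusted p under 0.05, with a median of -0.32. Fatty acid oxidation (25 tested, median -0.23) and hypoxia and glycolysis (24 tested, median -0.20) leaned the same way, and calcium handling had a median of -0.10. With all libraries and no covariate, edgeR and plain limma-voom called no gene of these 5 lists. At an unadjusted p under 0.05, 2 genes of hypoxia and glycolysis, 3 of calcium handling and none of fatty acid oxidation were lower. Over all 14687 genes tested, 1012 (6.89%) were lower at that p and 7299 had a lower mean. DESeq2 called 1 sarcomere and 3 calcium handling genes lower, 1 gene of hypoxia and glycolysis in each direction, and none of the other 2 lists. These counts rested on AOS replicate 2. Without it, 16 sarcomere and 25 oxidative phosphorylation genes were lower at an unadjusted p under 0.05. So were 13 of fatty acid oxidation, 13 of hypoxia and glycolysis and 5 of calcium handling. The lower share of all genes rose as well, to 2268 of the 14828 genes tested in that fit. There edgeR called 1 sarcomere and 2 calcium handling genes lower, and 110 of all genes.

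Interferon response genes leaned higher: all 25 tested had a higher mean in busulfan libraries, 16 at an unadjusted p under 0.05, with a median of 1.07 and none called in edgeR or limma-voom. Of all genes tested, 50.3% had a higher mean, and 10.3% were higher and 6.89% lower at an unadjusted p under 0.05. DESeq2 called 4 of the 25 interferon genes, against 4.01% of all genes in either direction. Oas2, an antiviral 2'-5' oligoadenylate synthetase, had 37.4, 90.4 and 122 CPM in busulfan plus AOS libraries and 37.8, 72.6 and 43.0 CPM in busulfan libraries, against 16.9, 59.7 and 29.8 CPM in AOS libraries and 18.4, 15.8 and 24.2 CPM in control libraries (adjusted p = 0.137). AOS replicate 2 lay among the busulfan libraries. Of 15 genes of inflammatory cytokines and adhesion, 7 were higher and 2 lower at an unadjusted p under 0.05 (median 0.64).

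**Figure D4:**
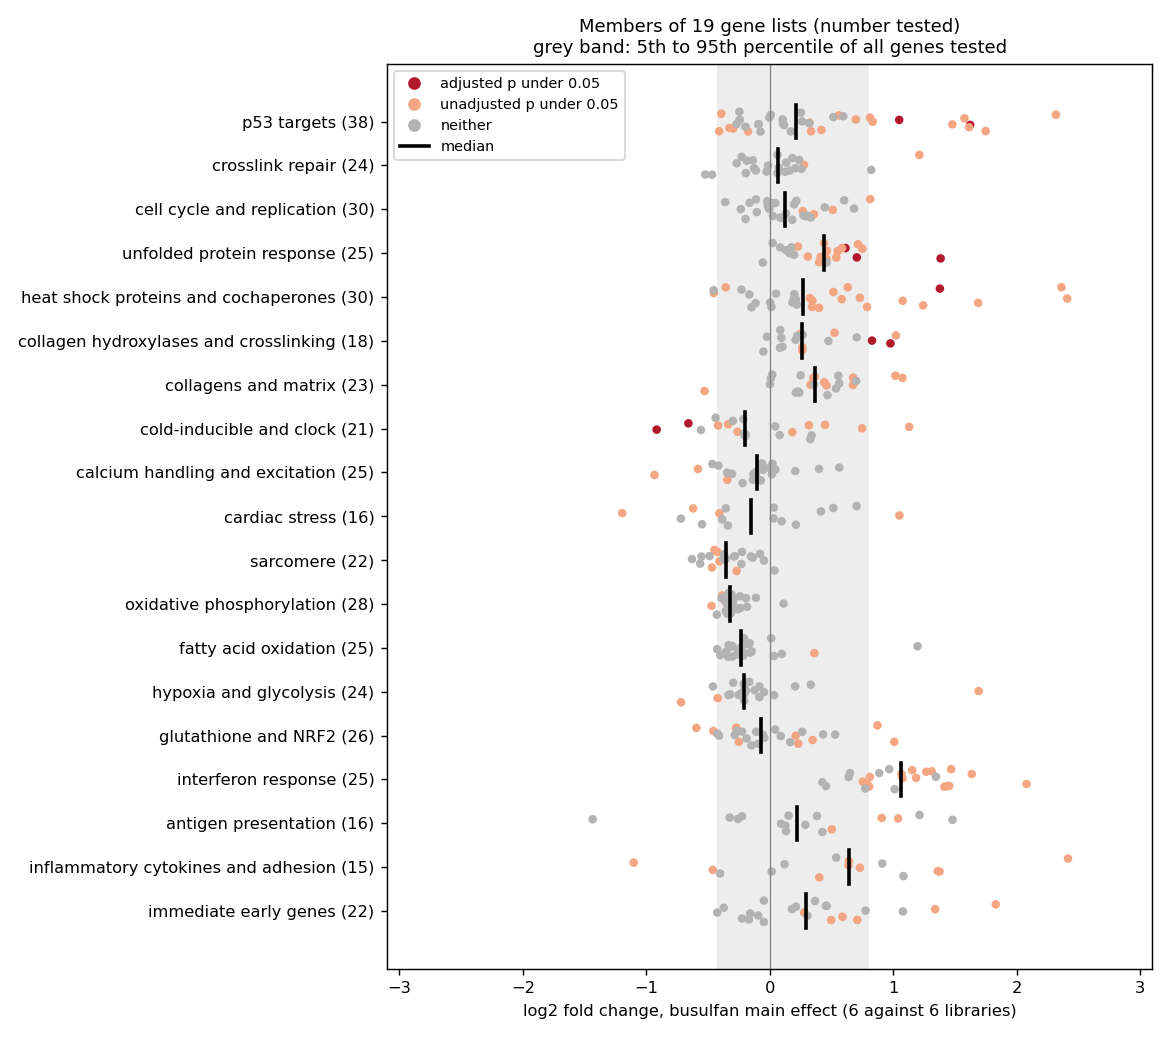
Log2 fold change of the busulfan main effect (horizontal axis) for the tested members of 19 gene lists; red points passed an adjusted p of 0.05, orange points an unadjusted p of 0.05, black bars are list medians and the grey band holds the 5th to 95th percentile of all genes. The medians run from -0.36 for sarcomere genes to 1.07 for interferon response genes.

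Markers of fat tissue leaned higher as well. All 13 adipocyte markers had a higher mean in busulfan libraries, against 50.3% of all genes tested. At an unadjusted p under 0.05, 12 were higher, against 10.3% of all genes. None was called in edgeR and 4 in DESeq2, which called 4.01% of all genes. The median of the 13 markers was 2.61, and none was at 0 in all libraries. Their summed level was 3077, 1752 and 2376 FPKM in busulfan plus AOS libraries and 1059, 3872 and 1476 FPKM in busulfan libraries, against 979.6, 1939 and 1057 FPKM in AOS libraries and 1205, 1081 and 955 FPKM in control libraries. Adipoq, the fat hormone adiponectin, ran between 0.959 and 144 CPM in busulfan libraries and between 0.227 and 67.5 CPM in the others. With the adipocyte marker level as a covariate, the medians were 0.05 for sarcomere, oxidative phosphorylation and collagen genes, 0.35 for interferon genes, 0.33 for the unfolded protein response, 0.40 for the heat shock list and 0.22 for the p53 list. The median of immediate early genes was then -0.32, against 0.29 without the covariate, and that of the mesothelium and epicardium markers -0.76, against 0.98. Because the adipocyte markers themselves leaned higher in busulfan libraries, this covariate overlaps with the comparison. The part of fat tissue in these lists was not tested. No gene of the unfolded protein response or heat shock lists passed with the covariate, and 2 of the p53 list did. At an unadjusted p under 0.05, these lists then had 15, 12 and 10 genes higher and 0, 0 and 1 lower. Over all 14687 genes, 695 were higher and 891 lower at that p. Under the adipocyte covariate 28 genes passed, 4 higher and 24 lower, and the 4 higher were Zmat3, Eda2r, Mtmr4 and Banp. Of the 24 lower, 3 were atrial markers. All 11 atrial markers then had a negative log2 fold change, with a median of -1.83, against -0.10 without the covariate. With atrial markers as the covariate, 371 genes passed in all. The unfolded protein response, heat shock and p53 lists then had 11, 4 and 8 called higher and 0, 0 and 1 lower. With airway and lung markers, 2584 genes passed, and these lists had 15, 10 and 11 higher and 0, 3 and 5 lower. Markers of smooth muscle and pericytes were split. At an unadjusted p under 0.05, 6 of 10 were higher, against 10.3% of all genes tested. Cspg4, a pericyte marker, was among them (log2 fold change 0.55, SE 0.13). The pericyte marker Pdgfrb (-0.28) was lower at that p, as were 6.89% of all genes. Rgs5, Abcc9 and Kcnj8 had -0.15, -0.09 and -0.18. The list had summed levels of 448 to 914 FPKM in busulfan libraries and 366 to 449 FPKM in the others. Of 14 macrophage markers 7 were higher at an unadjusted p under 0.05, against 10.3% of all genes tested. The macrophage sum was 326 to 891 FPKM in busulfan libraries and 332 to 762 FPKM in the others.

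**Figure D5:**
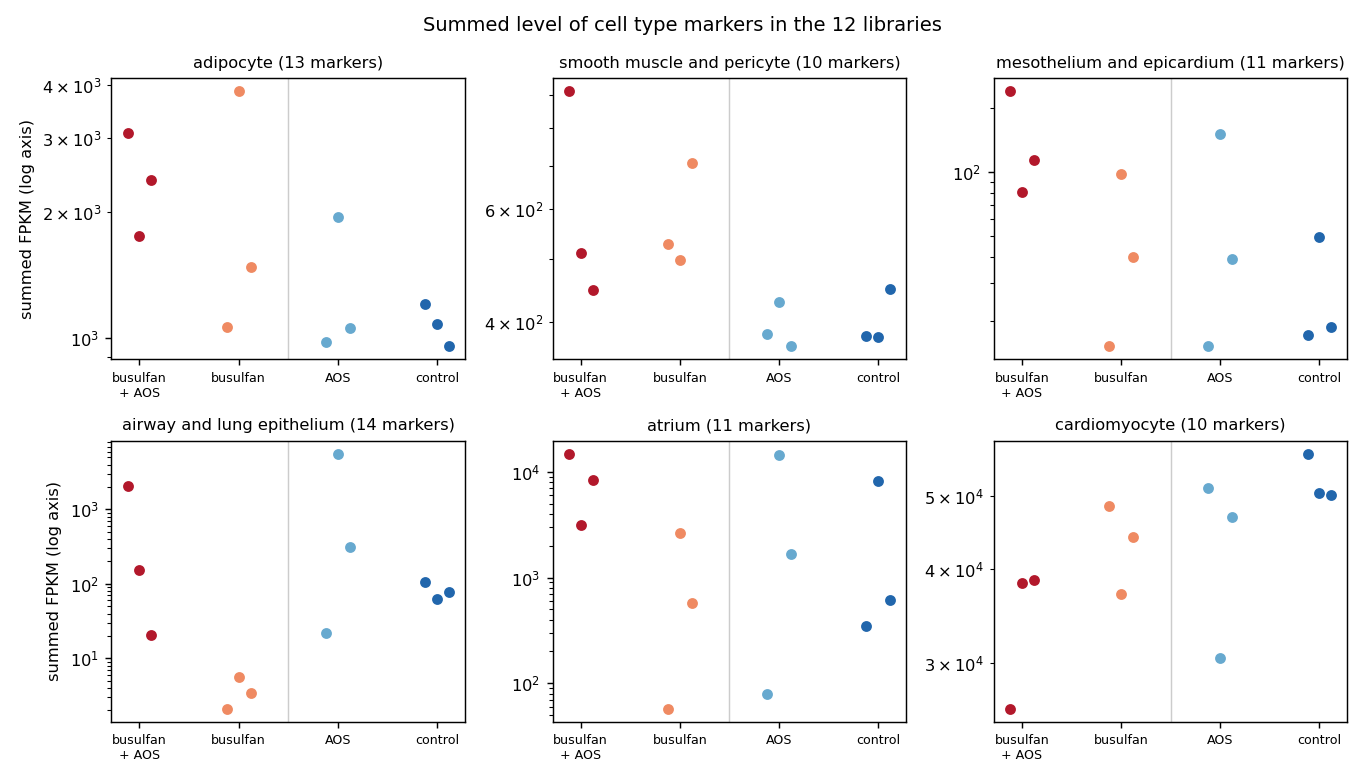
Summed FPKM (log axes) of 6 sets of cell type markers in each library, with busulfan groups on the left of each panel. The adipocyte sum is highest in busulfan replicate 2 (3872 FPKM) and lowest in control replicate 3 (955 FPKM), and the airway and lung sum is highest in AOS replicate 2 (5575 FPKM).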

How the data were processed

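RNA sequencing of 12 mouse heart libraries was used, in 4 groups of 3 taken from the sample titles. The group code HBA0 was read as the B0 of the design text. The estimated counts per gene were deposited by the authors, and 19.7% to 22.8% of a library's values are not whole. The other values the authors deposited are taken as FPKM: gene lengths implied by them varied between libraries by a median of 0.457% over 1097 genes with 50 or more throughout. The genome build named in the submitters' processing notes is mm10; aligner, counter, annotation and strand use are not given in the sources used. The 8 columns of group means by the authors were left out.

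Estimated counts were rounded to whole numbers and filtered with filterByExpr, which removed 4559 genes. TMM scaling and edgeR 4.0.16 (quasi-likelihood test on 4 group means, R 4.3.3) followed, with Benjamini-Hochberg adjustment over all genes tested and a threshold of 0.05. The common biological coefficient of variation was 29.1%. An SE is the size of the log2 fold change over the square root of F. The test was checked on simulated data. Alternatives used DESeq2 1.42.0, limma 3.58.1, other filters and scalings, marker levels as covariates and each library left out.

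Named genes are those past the threshold, the next by p up to 30, the 5 lower genes with the smallest p, the 4 members with the smallest p of each list (and members needed to describe it), cell type markers and the 5 genes with the smallest interaction p. The 1 called gene model without a name is outside this rule and was named after its values were seen. The comparison, the lists and the rule were chosen with earlier results of these data known. Loci and overlapping genes come from RefSeq in GRCm38.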

Additional observations from a re-analysis of the deposited data

How the results depend on the processing

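The 23 genes of the main effect kept their direction in all 26 alternative settings, which their choice from the same libraries favours. The number of genes past the threshold held in some settings and not in most. It was 23 with relative log expression size factors and with no filter, and 24 with a filter at a mean of 1 CPM. With limma on log2(FPKM + 1) or log2(FPKM + 0.1) it was 19, of which 15 were among the 23. The adipocyte covariate gave 28, of which 4 were among the 23. Other settings moved the count. It was 589 with DESeq2, 818 with limma-voom and library quality weights, 14 with plain limma-voom, 5 on library totals alone and 38 with an additive model. A covariate for atrial markers gave 371 and one for airway and lung markers 2584. Leaving out 1 library gave 1 to 345. Why the counts differ so widely was not tested.

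Busulfan against control, with 0 called, gave 52 with DESeq2, 1 with limma on log2(FPKM + 1), 139 with the atrial covariate, 35 with the adipocyte covariate and 0 to 4 with 1 library left out. Busulfan plus AOS against AOS, with 3 called, gave 155 with DESeq2, 286 with quality weights and 31 with the airway and lung covariate. It gave 0 on library totals alone, without a filter on low counts, with limma on log2(FPKM + 1), and with the atrial or adipocyte covariate, and 0 to 1 with 1 library left out. The interaction, with 0 called, gave 5 with DESeq2.

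Replicate numbers are shared across groups. Same-numbered libraries deviated together (r over 0.1) in 6 of 18 pairs, with r of -0.45 to 0.55, against -0.54 to 0.50 for other pairs. These 6 were all the pairs of replicates 1 and of replicates 2 among control, AOS and busulfan libraries (r of 0.23 to 0.55). Replicates 1 and 2 of different groups among these had r of -0.54 to -0.23. No same-numbered pair with replicate 3 or busulfan plus AOS had r over 0.1. The numbers were not taken as pairing in the main fit, and pairing was not excluded. With the replicate block, 5 genes passed in the main effect, Zmat3, Eda2r and Mtmr4 among them, and 0 in busulfan plus AOS against AOS.

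Of 2518 values of single genes under alternatives, 3 reversed, all under the adipocyte covariate: Acta1 (0.04), Angptl4 (-0.24) and Ldhb (0.02).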

Other observations

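Several genes outside the called set differed by large amounts between single libraries. Hbb-bs and Ucp1 were picked from the cell type markers after their values were seen. Kap came in by the naming rule, among the 5 lower genes with the smallest p, and Ripor2 by its interaction p. Hbb-bs, an adult beta-globin, had 87.2, 4.71 and 916 CPM in busulfan plus AOS libraries and 24.3, 2.24 and 0.874 CPM in busulfan libraries, against 0.541, 0 and 0.0835 CPM in AOS libraries and 0.340, 0.260 and 0.0980 CPM in control libraries. The sides did not overlap, and the adjusted p in edgeR was 0.0826. The alpha-globin Hba-a1 had a log2 fold change of -0.72 (adjusted p = 0.477), and the summed level of 7 red cell markers ran between 3667 and 19229 FPKM in busulfan libraries and between 5446 and 35283 FPKM in the others. Near-identical globin copies can share reads.

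Kap, kidney androgen-regulated protein, had 0 CPM in all 3 busulfan plus AOS libraries and 0.959, 7.17 and 1.66 CPM in busulfan libraries, against 27.3, 18.3 and 35.7 CPM in AOS libraries and 1.59, 21.0 and 11.9 CPM in control libraries (adjusted p = 0.0594 in the main effect). Ucp1, the uncoupling protein of brown fat, had 97.9, 6.18 and 82.9 CPM in busulfan plus AOS libraries and 1.74, 279.8 and 50.2 CPM in busulfan libraries, against 0.361, 35.2 and 2.84 CPM in AOS libraries and 0 CPM in all 3 control libraries (adjusted p = 0.16).

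Ripor2 had the smallest interaction p of all genes, with an adjusted p of 1 in edgeR. It had 3.85, 3.63 and 2.75 CPM in busulfan plus AOS libraries and 7.67, 5.71 and 8.04 CPM in busulfan libraries, against 8.84, 10.6 and 13.9 CPM in AOS libraries and 7.03, 4.17 and 4.31 CPM in control libraries.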
